A study of Rattus norvegicus with 9 samples.

Results

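The comparison of the pLV-Exo-Wnt5a group with the Exo group covered 15132 of the 23953 genes in the count table, all those that kept enough reads in the 6 libraries concerned. It addresses what changes in neural stem cells (NSCs) when the exosomes they receive come from donor cells made to overexpress Wnt5a, with exosomes present on both sides. The NSCs were described as isolated from the spinal cord of neonatal Sprague-Dawley rats and were kept in differentiation medium in all groups. The Exo group received exosomes of bone marrow mesenchymal stem cells (BMSCs), which according to the study's methods carried the empty lentiviral vector, and the pLV-Exo-Wnt5a group received exosomes of BMSCs transduced with a lentivirus that encodes Wnt5a. A further group had the medium alone (Con, 3 libraries) and is given here only as a level beside the called genes. Each group had 3 RNA-seq libraries of the 9 in the series, all with the same batch label, and the labels do not say that they came from separate cultures. The study's methods describe replicates of each group in multi-well plates without saying how these relate to the libraries, so the p-values measure the spread between these libraries, which may be technical.

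Exosomes are small vesicles that cells release with proteins and RNA inside, and that other cells can take up. NSCs in differentiation medium give rise to neurons, astrocytes and oligodendrocyte lineage cells. Astrocytes that respond to inflammatory cytokines raise intermediate filament proteins, protease inhibitors of the Serpina3 family and complement component C4, and interferons raise the MHC class I pathway, by which peptides cut by the immunoproteasome are shown at the cell surface. The transcription factors STAT3 and NF-κB and the IRF proteins are known to carry these responses.

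Total counts lay between 36469629 and 40427647 in the 6 libraries, where 3 counts correspond to 0.0727 to 0.0819 CPM (counts of a gene scaled to a common library size, here with TMM, the trimmed mean of M-values). These limits cover counting error only. Replicates differed by more than sampling noise (chi-square per degree of freedom of at least 13.3 over 6 pairs). Wnt5a itself, the ligand overexpressed in the donor BMSCs, had levels of 33.2, 25.7 and 27.7 CPM with the Exo exosomes and of 30.8, 24.3 and 31.7 CPM with the Wnt5a exosomes, which overlap (log2FC 0.013, standard error 0.12, Q = 0.983). Markers of NSCs, astrocytes, neurons and the oligodendrocyte lineage were all present, with Sox2 at 555 ± 109 CPM, Gfap at 2227 ± 42.2, Tubb3 at 1769.8 ± 219.7 and Olig2 at 495 ± 33.5 (mean ± SD, n = 3, Exo group). Of 39 listed Hox genes, which mark the spinal cord and hindbrain, 12 were in the table and 0 passed the filter, and their summed level reached at most 0.606 CPM in any of the 9 libraries. All 30 listed forebrain transcription factors passed it, with a summed level of 1815 to 1872 CPM in the Exo libraries and 1663 to 1919 CPM in the pLV-Exo-Wnt5a libraries. The defining markers of the labelled tissue were thus at or near 0. Gene symbols and NCBI numbers in the table are those of the mouse, whereas the cells are described as rat, and how closely rat reads were assigned to them was not tested.

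The genes that rose in the pLV-Exo-Wnt5a group were led by Serpina3n, C4b, Tnn, S1pr3, H19, MHC class I genes and interferon-response genes, and the abundant astrocyte filament gene Gfap rose by less than 2-fold. With the study's own limits, a Benjamini-Hochberg adjusted p (Q) under 0.05 from edgeR's quasi-likelihood test and a fold change above 2 or below 0.5, 23 genes were raised (0.152% of the genes tested) and 3 were lowered (0.0198%). With Q alone, 59 were raised (0.39%) and 16 lowered (0.106%), 75 in all (0.496%). The absolute log2FC of the raised genes started at 0.30 and had a median of 0.85. Its upper end of 5.02, for Ccl6, rests on 1 or 2 counts in each Exo library and depends on the prior count of the fit. For the lowered genes it ran from 0.36 to 1.42 with a median of 0.62. At an unadjusted p under 0.05 the balance was the other way, with 777 genes higher (5.13%) and 1024 lower (6.77%). DESeq2 on the same counts gave 190 raised and 237 lowered genes at Q, edgeR without the filter on low counts gave 147 and 135, and leaving out Exo replicate 3 gave 47 and 60, so which direction held more genes at Q depended on the tool and on 1 library. Leaving out Exo replicate 2 left 11 raised and 0 lowered genes past both limits, and leaving out pLV-Exo-Wnt5a replicate 1 or 3 left 13 and 1. The lowered count also became 0 without Exo replicate 1 or pLV-Exo-Wnt5a replicate 2, and at Q alone it became 8 without either of these or without pLV-Exo-Wnt5a replicate 1, and fell to 3 when Exo replicate 2 was left out. Raised genes at Q alone then numbered 17 in the fit that lacked Exo replicate 2, and 19 in that lacking pLV-Exo-Wnt5a replicate 1. Leaving out any of the 6 libraries in turn, 20 of the 75 genes passed Q in every fit, among them Serpina3n, C4b, Tnn, S1pr3, H19, Gfap, H2-D1, H2-K1, H2-Q4, Ifitm3, Oasl2, Nlrc5, Clu, Ccl6 and Lyz2, and 6 passed in none (Hopx, Or10ad1, Mid2, Bcl3, Cd5l and Ptprd). Of the rest 1 passed in 5 of the fits, 20 in 4, 6 in 3, 10 in 2 and 12 in 1. The groups did not overlap for any of the 75 called genes, including the 6 that passed in none of these fits. Where groups of a called gene are described below as apart, this therefore adds no support to its call.

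**Figure D1:**
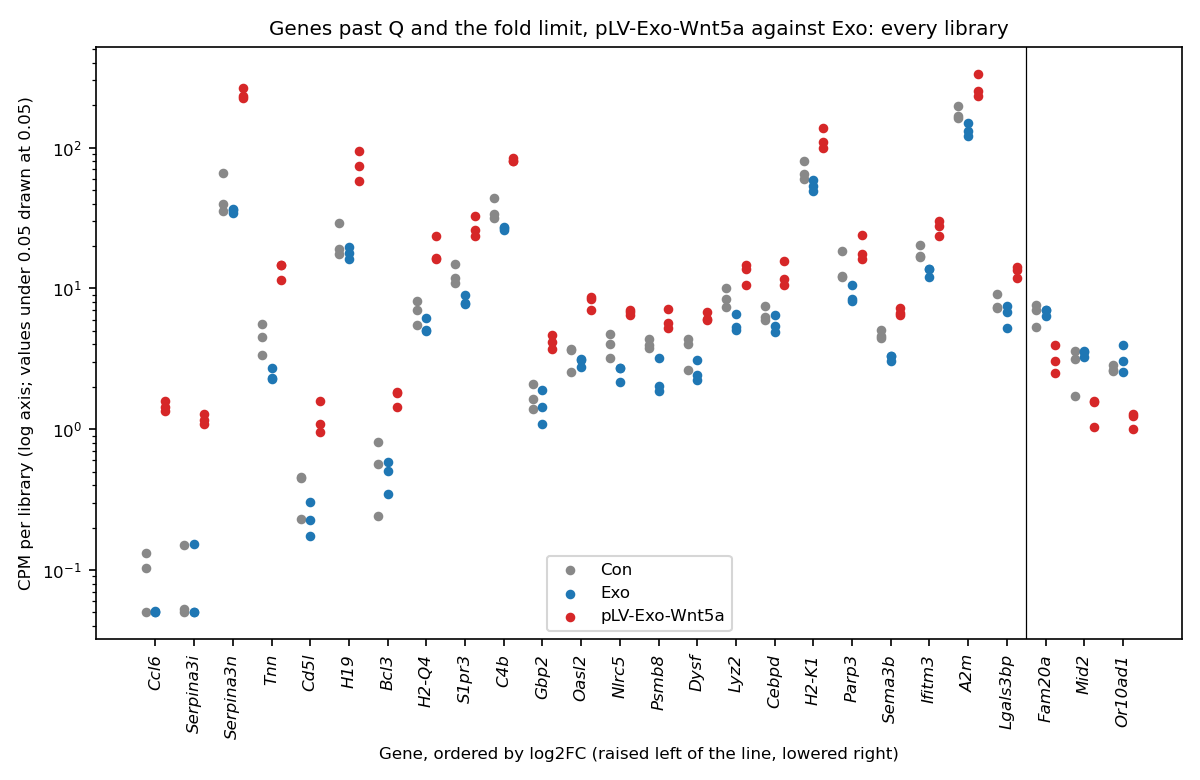
Level of each of the 26 genes past Q and the fold limit in every library (points, CPM on a log axis), with the Con group in grey, the Exo group in blue and the pLV-Exo-Wnt5a group in red. The 3 red points lie above the 3 blue points for the 23 raised genes and below them for the 3 lowered genes, and the grey points mostly lie with the blue ones or between the 2 groups.

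How large a difference had to be to pass depended on read abundance. Among the 2093 genes under 1 CPM, where the median standard error of a log2FC was 0.52, only 3 passed, Ccl6, Serpina3i and Cd5l (0.143%), all raised with a log2FC of 2.37 or more. All 3 exceeded 10 counts in every pLV-Exo-Wnt5a library but not in every Exo library. They met the filter on low counts through the group where they were high, so their calls are not independent of that filter. Among the 3753 genes of 1 to 10 CPM the median error was 0.22, and 12 were raised and 4 lowered (0.426%), the smallest with an absolute log2FC of 0.71. The 6858 genes of 10 to 100 CPM held 25 raised and 9 lowered genes (0.496%) with a median error of 0.092, and the 2428 genes over 100 CPM held 19 and 3 (0.906%) with a median error of 0.062. In the most abundant class a log2FC of 0.30 sufficed, as for the amino acid transporter gene Slc1a4, and only Serpina3n and A2m exceeded the fold limit there. Summed over the 59 raised genes, reads made up 7352 to 7724 CPM of the Exo libraries and 11574 to 12877 CPM of the pLV-Exo-Wnt5a libraries. The 16 lowered genes fell in sum from 2044 to 2099 CPM to between 1437 and 1508 CPM. Of the called genes 73 were protein-coding, 58 of them raised and 15 lowered, and the other two were the long non-coding RNAs H19 (raised) and Cerox1 (lowered).

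**Figure D2:**
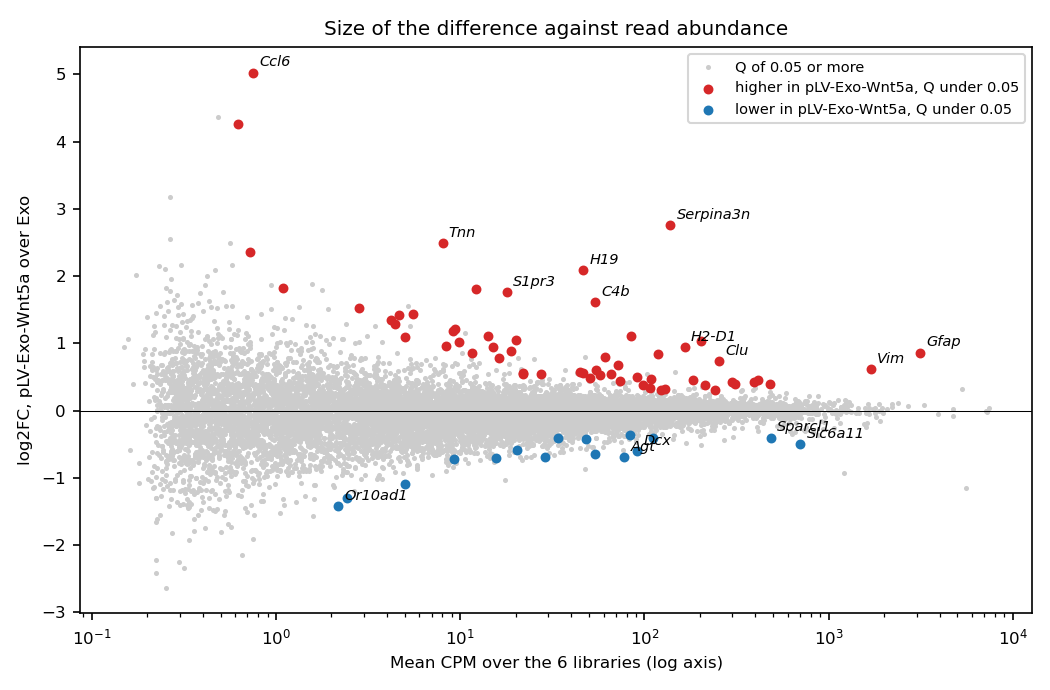
log2FC of pLV-Exo-Wnt5a over Exo (vertical axis) against the mean CPM of the 6 libraries (horizontal log axis), 1 point per gene tested, with genes at Q under 0.05 in red (59 raised) and blue (16 lowered) and all others in grey. The grey band narrows towards abundant genes, and called genes over 100 CPM have a log2FC as small as 0.30.

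Serpina3n, a serine protease inhibitor, and the complement gene C4b had the smallest Q of all genes tested. Serpina3n, a secreted inhibitor that reactive astrocytes make, was at 34.6, 36.1 and 36.8 CPM in the Exo libraries and at 234, 224 and 266 CPM in the pLV-Exo-Wnt5a libraries (log2FC 2.76, standard error 0.077, Q = 1.15e-08). Complement component C4b, which is cleaved to tag surfaces in the classical pathway, was at 25.9, 26.8 and 27.1 CPM and 79.7, 83.8 and 79.9 CPM (log2FC 1.62, standard error 0.066, Q = 3.52e-07). Neither gene's groups came near to overlapping, and replicates within a group stayed within a narrow range. Serpina3i had 7 counts in the 3 Exo libraries together and 139 in the 3 pLV-Exo-Wnt5a libraries, a depth-scaled ratio of 20.1 (exact 95% interval from counting 9.51 to 51.0), and passed Q at 0.0245. Members of the mouse Serpina3 cluster are near-identical copies, as are C4a and C4b, so reads may have been split among them. Clusterin (Clu), a secreted chaperone that also restrains complement, rose from 173, 199 and 199.6 CPM to 303, 337 and 311 CPM (log2FC 0.74, Q = 7.63e-04). The broad protease inhibitor A2m rose from 149, 119.97 and 132 CPM to 253, 231 and 333 CPM (log2FC 1.04, Q = 0.0136), with the third pLV-Exo-Wnt5a library well above the others. The A2m call was lost when Exo replicate 2 or 3 was left out and without the filter on low counts (Q up to 0.121), and Serpina3i passed in 3 of the 6 fits that left out a library (Q up to 0.222). Serpina3n, C4b and Clu passed in all 6. Over the serpin list 2 of 10 tested genes rose and 0 fell, where 0.39% of all genes tested rose, with a median log2FC of 0.18. Over the complement list 2 of 27 rose and 0 fell, to be read against the same share, and the median was 0.47 against 0.0049 over all genes tested. C3, the central component, stayed under 2 CPM and missed the threshold (0.168 ± 0.127 against 0.953 ± 0.216 CPM, log2FC 2.49, Q = 0.089), as did the C1 inhibitor Serping1 (0.997 ± 0.321 against 2.84 ± 0.521 CPM, Q = 0.0564).

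Raised genes included the MHC class I heavy chain genes H2-D1, H2-K1 and H2-Q4, with Nlrc5 and Psmb8, which serve them, and genes of the interferon response. H2-D1 and H2-K1 encode classical class I heavy chains, and H2-Q4 encodes a related one. H2-D1 was at 118, 109.8 and 113 CPM in the Exo libraries and 210.5, 202 and 239 CPM in the pLV-Exo-Wnt5a libraries (log2FC 0.94, standard error 0.072, Q = 1.27e-04). H2-K1 was at 59.2, 53.5 and 49.6 CPM and 109.6, 99.4 and 138 CPM (log2FC 1.11, Q = 0.00206), and H2-Q4 at 6.15, 4.99 and 5.05 CPM and 16.5, 16.3 and 23.7 CPM (log2FC 1.81, Q = 7.94e-04). In all of these the lowest pLV-Exo-Wnt5a library lay above the highest Exo library, and the third pLV-Exo-Wnt5a library was the highest. These heavy chains share sequence, and the mouse symbols do not name rat class I genes, so their separate values are uncertain. Nlrc5, the transactivator of class I genes, rose from 2.17, 2.73 and 2.6998 CPM to 6.77, 6.47 and 7.07 CPM (log2FC 1.43, Q = 0.00397), and the immunoproteasome subunit Psmb8 from 1.86, 2.04 and 3.23 CPM to 5.66, 5.27 and 7.19 CPM (log2FC 1.35, Q = 0.036). H2-D1, H2-K1, H2-Q4 and Nlrc5 passed in all 6 fits that left out a library, whereas Psmb8 passed in 2, with a Q of up to 0.262. Of 23 class I genes tested, 5 rose, 0 fell and 18 did not pass, with a median log2FC of 0.47, where 0.39% of all genes tested rose. Of the 4 MHC class II genes tested, 0 passed, and the summed level of all 10 listed class II genes in the table was 11.6 to 12.7 CPM in the Exo libraries and 11.6 to 14.3 CPM in the pLV-Exo-Wnt5a libraries.

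On the interferon list 7 of 46 tested genes rose (0.39% over all genes tested) and 0 fell, and 42 had a log2FC above 0. In 23 of the 46 every pLV-Exo-Wnt5a library lay above every Exo library, and in 0 the reverse, where 7.9% and 8.57% of all genes tested did so in each direction. The list median of 0.65 compared with 0.0049 over all genes. Microglia and macrophage markers had a higher sum as well (165 to 190.4 CPM in the Exo libraries, 202 to 207 CPM in the pLV-Exo-Wnt5a libraries), and their part was not tested. Ifitm3, a membrane protein that blocks virus entry, was at 13.7, 12.1 and 13.7 CPM and 27.6, 23.7 and 30.1 CPM (log2FC 1.06, standard error 0.11, Q = 0.00158). Oasl2, of the oligoadenylate synthetase family, was at 3.14, 3.08 and 2.75 CPM and 8.69, 7.04 and 8.38 CPM (log2FC 1.43, Q = 0.00242), and the guanylate-binding protein gene Gbp2 at 1.89, 1.44 and 1.08 CPM and 4.19, 3.71 and 4.699 CPM (log2FC 1.52, Q = 0.021). None of these 3 genes had overlapping groups, as was so for all 75 called genes. The secreted glycoprotein gene Lgals3bp rose from 7.53, 5.22 and 6.76 CPM to 14.1, 11.8 and 13.6 CPM (log2FC 1.03, Q = 0.0152), and Ifi27 from 10.1, 9.86 and 11.001 CPM to 18.8, 16.3 and 24.3 CPM (log2FC 0.95, Q = 0.0197). Ifitm3, Oasl2 and Nlrc5 passed in all 6 fits that left out a library, Lgals3bp and Ifi27 in 4, Gbp2 in 3 and Psmb8 in 2. Lgals3bp, Ifi27 and Gbp2 were all lost when Exo replicate 2 or pLV-Exo-Wnt5a replicate 1 was left out, with a Q of up to 0.114, 0.172 and 0.172.

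The first 4 promoter windows are printed because these raised interferon-list genes shared a short motif, and that of Serpina3n, which is not on that list, because this gene had the smallest Q of all. The windows are rat RefSeq sequences (GRCr8), 250 bases before to 50 after the start of the gene with the same symbol, written 5′ to 3′ on the gene's strand, and capitals mark, on either strand, GAAA and GAAA spaced by any 2 bases in the first 4 windows (the core of the interferon-stimulated response element, ISRE) and TTC and GAA spaced by any 3 bases in Serpina3n (the core that STAT dimers bind).
Ifitm3: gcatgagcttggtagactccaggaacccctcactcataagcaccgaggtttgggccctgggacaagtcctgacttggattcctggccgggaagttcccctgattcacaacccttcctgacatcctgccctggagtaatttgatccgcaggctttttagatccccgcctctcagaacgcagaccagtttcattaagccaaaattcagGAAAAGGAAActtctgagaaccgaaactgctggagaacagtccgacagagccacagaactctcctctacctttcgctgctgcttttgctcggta
Gbp2: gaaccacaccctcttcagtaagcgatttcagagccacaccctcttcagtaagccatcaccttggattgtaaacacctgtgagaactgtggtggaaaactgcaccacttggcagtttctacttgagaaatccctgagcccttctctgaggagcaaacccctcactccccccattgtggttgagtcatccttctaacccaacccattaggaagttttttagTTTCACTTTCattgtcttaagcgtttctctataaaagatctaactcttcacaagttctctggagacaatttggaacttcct
Psmb8: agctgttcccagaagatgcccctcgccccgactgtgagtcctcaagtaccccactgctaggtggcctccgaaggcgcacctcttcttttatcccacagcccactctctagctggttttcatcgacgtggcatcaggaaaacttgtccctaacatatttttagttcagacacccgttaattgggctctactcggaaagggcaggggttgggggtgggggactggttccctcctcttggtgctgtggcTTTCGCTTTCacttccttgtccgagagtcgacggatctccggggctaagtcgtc
Oasl2: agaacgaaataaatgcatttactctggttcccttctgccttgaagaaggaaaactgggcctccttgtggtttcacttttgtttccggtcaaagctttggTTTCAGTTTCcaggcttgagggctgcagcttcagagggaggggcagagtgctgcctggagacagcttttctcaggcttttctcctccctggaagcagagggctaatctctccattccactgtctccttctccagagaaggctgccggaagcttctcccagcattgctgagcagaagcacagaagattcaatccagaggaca
Serpina3n: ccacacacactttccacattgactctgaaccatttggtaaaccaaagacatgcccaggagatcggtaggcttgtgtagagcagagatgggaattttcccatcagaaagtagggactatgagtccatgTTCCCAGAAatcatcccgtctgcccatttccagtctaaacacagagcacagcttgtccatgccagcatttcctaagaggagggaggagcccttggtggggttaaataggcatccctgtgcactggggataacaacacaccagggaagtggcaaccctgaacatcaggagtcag
The Ifitm3 window is chr1:205541709-205542008 (minus strand), that of Gbp2 chr2:234005477-234005776 (plus), that of Psmb8 chr20:4656982-4657281 (minus), that of Oasl2 chr12:47383136-47383435 (minus) and that of Serpina3n chr6:129088142-129088441 (plus). The ISRE core was found in all 6 raised interferon-list genes that had a window (Ifitm3, Gbp2, Psmb8, Oasl2, Lgals3bp and Ifi27), in 23 of 35 tested genes of that list (65.7%), and in 3.92% of the 33469 rat windows. Of all 59 raised genes 41 had a window and 7 of these held it (17.1%), the other being Hopx, against 2.93% of the 10693 tested genes with a window and 0 of the 10 lowered genes with a window. Outside the interferon list 1 of 35 raised genes with a window held it (2.86%), near the share of the tested genes. The 17.1% therefore reflects the members of that list. The STAT core was in 3 of 41 raised genes (7.32%, Serpina3n, Ifitm3 and Psmb8) and in 6.91% of the tested genes with a window (8.87% of all windows), and the NF-κB motif, GGGA and TTTCC spaced by any base, in 1 of 41 (2.44%, Tnn) and in 0.468% of the tested genes with a window (0.362% of all windows). Matches to different motifs did not overlap in any raised gene. The windows were matched by symbol alone. These matches describe letters in a window, and binding was not measured.

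Several reactive astrocyte genes rose and a few homeostatic astrocyte genes fell. Gfap, the main intermediate filament of astrocytes, was at 2195, 2213 and 2275 CPM in the Exo libraries and 3971, 4071 and 4029 CPM in the pLV-Exo-Wnt5a libraries (log2FC 0.86, standard error 0.052, Q = 1.84e-05). Vim, another filament gene shared by NSCs and reactive astrocytes, was at 1467, 1236 and 1302 CPM and 2077, 1694 and 2358 CPM (log2FC 0.62, standard error 0.11, Q = 0.0474). The Gfap groups lay far apart with close replicates, and the Vim replicates were spread widely although they did not overlap. Gfap passed in all 6 fits that left out a library, whereas Vim passed in 2, with a Q of up to 0.262, and also missed the threshold without the filter on low counts (Q = 0.161) and with all 9 libraries in the fit (Q = 0.0845). S1pr3, a receptor for sphingosine-1-phosphate, was at 7.94, 7.73 and 8.96 CPM and 26.1, 23.7 and 32.9 CPM (log2FC 1.76, standard error 0.14, Q = 1.32e-04), and was the only one of 20 tested genes of sphingosine-1-phosphate signalling to pass (0.496% of all genes tested passed). Ggta1, a galactosyltransferase of the reactive astrocyte list, rose from 13.4 ± 1.71 to 24.5 ± 3.79 CPM (log2FC 0.89, Q = 0.0169), and passed in 4 of the 6 fits that left out a library, S1pr3 in all 6. On that list 9 of 36 tested genes rose (0.39% over all genes tested) and 0 fell, with a median log2FC of 0.87. The summed level of its 41 genes in the table was 4080 to 4330 CPM in the Exo libraries, 6748 to 7571 CPM in the pLV-Exo-Wnt5a libraries and 4592 to 5902 CPM in the Con libraries. Gfap and Vim made up most of this sum in each group, so it says little about the other genes of the list. The list overlaps the complement, class I and interferon lists through C4b, H2-D1, Gbp2 and Psmb8. Lcn2, a secreted siderophore-binding protein, was close to the count limit in the Exo group (0.128, 0 and 0 CPM), lay at 0.530, 1.47 and 0.775 CPM in the other group, and missed the threshold (Q = 0.0642).

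Of 38 tested genes of homeostatic astrocytes, 3 fell (0.106% over all genes tested) and 0 rose, 26 had a log2FC below 0, and the median was -0.14. Slc6a11, the astrocyte GABA transporter, was at 823, 797 and 859 CPM in the Exo libraries and 609.5, 551 and 578 CPM in the pLV-Exo-Wnt5a libraries (log2FC -0.50, standard error 0.058, Q = 0.00271). Agt, which encodes angiotensinogen, was at 94.5, 89.5 and 104 CPM and 63.05, 50.9 and 63.5 CPM (log2FC -0.69, standard error 0.092, Q = 0.00954). The matricellular protein gene Sparcl1 was at 504, 594 and 569 CPM and 423, 427 and 405 CPM (log2FC -0.40, standard error 0.066, Q = 0.0248). The groups of all 3 genes were apart, and Slc6a11 and Agt passed in all 6 fits that left out a library and Sparcl1 in 2. The Sparcl1 call was also lost with all 9 libraries in the fit. The bicarbonate transporter Slc4a4 had 91.9 ± 7.79 against 60.6 ± 10.2 CPM and did not pass (Q = 0.0597), and neither did the glutamate transporter Slc1a3 (618 ± 19.001 against 533 ± 26.6 CPM, Q = 0.181) or the water channel Aqp4 (20.05 ± 1.79 against 17.96 ± 5.13 CPM, Q = 0.808). Aldh1l1, a folate enzyme that marks astrocytes, did not pass either, at 728 ± 35.7 against 841 ± 123 CPM (log2FC 0.22, Q = 0.4), with the higher mean in the pLV-Exo-Wnt5a group. In these bulk libraries fewer cells of a type and less RNA per cell cannot be told apart.

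**Figure D3:**
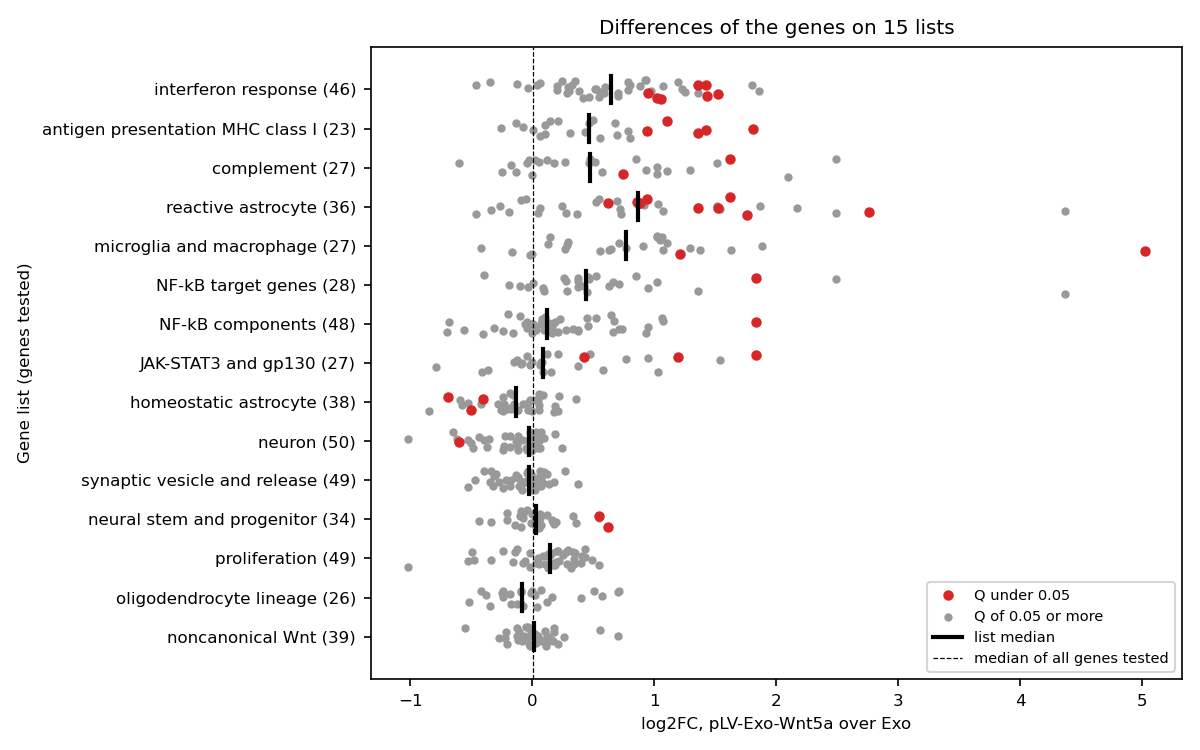
log2FC of pLV-Exo-Wnt5a over Exo for every tested gene of 15 lists (points, red at Q under 0.05), with the list median as a black bar and the median of all genes tested as a dashed line. The medians of the interferon (0.65), reactive astrocyte (0.87) and microglia and macrophage (0.77) lists lie right of the dashed line, that of the homeostatic astrocyte list (-0.14) lies left of it, and that of the noncanonical Wnt list (0.016) lies near it.

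Transcription factors known to act downstream of gp130 cytokines were among the raised genes. Stat3 was at 268, 245 and 251 CPM in the Exo libraries and 335, 308 and 379.7 CPM in the pLV-Exo-Wnt5a libraries (log2FC 0.43, standard error 0.078, Q = 0.0457). Cebpd, an acute-phase transcription factor, was at 5.39, 6.51 and 4.895 CPM and 11.7, 10.6 and 15.7 CPM (log2FC 1.19, Q = 0.0144). Bcl3, an atypical IκB protein that binds NF-κB p50 and p52, was at 0.587, 0.348 and 0.505 CPM and 1.82, 1.45 and 1.84 CPM (log2FC 1.83, Q = 0.0474). Groups did not overlap for any of them, although Bcl3 passed in 0 of the 6 fits that left out a library and Stat3 in 2, and both were lost with all 9 libraries in the fit. Cebpd passed in 4. The transcriptional coregulator Sbno2 rose from 42.2 ± 2.24 to 58.8 ± 3.35 CPM (log2FC 0.49, Q = 0.0159) and also passed in 4 of the 6 fits, but was lost with all 9 libraries in the fit. On the JAK-STAT3 list 3 of 27 genes rose (0.39% over all genes tested), these being Cebpd, Stat3 and Bcl3, and 0 fell, with a median log2FC of 0.09. Bcl3 was also the only gene to pass among 48 NF-κB components (median 0.12, 33 with a log2FC above 0) and among 28 NF-κB target genes (median 0.44, 24 above 0), both to be read against the same share. The inhibitor Nfkbia, itself an NF-κB target, had 23.6 ± 1.89 against 32.2 ± 4.03 CPM (Q = 0.108), the receptor Tnfrsf1a 53.6 ± 1.15 against 66.9 ± 5.87 CPM (Q = 0.089), and the kinase Map3k14 9.59 ± 0.786 against 14.9 ± 3.03 CPM (Q = 0.109), and none passed.

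Some other raised genes encode matrix proteins and secreted factors, and Tnn was the only raised gene of the list of tenascins, lecticans and other matrix genes. Of its 47 tested genes 1 rose and 1 fell (Sparcl1), where 0.39% and 0.106% of all genes tested did so. The median log2FC was 0.14, and the summed level of its 53 genes in the table was 5943 to 6316 CPM in the Exo libraries and 5683 to 5999 CPM in the pLV-Exo-Wnt5a libraries. Tnn, which encodes the matrix protein tenascin-N (also called tenascin-W), was at 2.297, 2.73 and 2.27 CPM in the Exo libraries and 14.6, 11.4 and 14.8 CPM in the pLV-Exo-Wnt5a libraries (log2FC 2.49, standard error 0.16, Q = 3.34e-05). Its groups were far apart. Its relative Tnc was at 236 ± 15.3 against 185 ± 8.996 CPM and did not pass (log2FC -0.34, Q = 0.0552). Among 34 collagens Col16a1 (37.4 ± 3.15 to 54.9 ± 1.45 CPM, log2FC 0.56) and Col4a6 (8.296 ± 0.251 to 14.9 ± 1.74 CPM, log2FC 0.85) rose and 0 fell, where 0.39% of all genes tested rose. Both calls were lost when Exo replicate 2 or pLV-Exo-Wnt5a replicate 1 was left out, with a Q of up to 0.114, and so was that of Pxdn, with one of up to 0.152. Peroxidasin (Pxdn), which cross-links collagen IV, rose with a log2FC of 0.38, and Ltbp3, which tethers latent TGF-β to the matrix, with one of 0.31. Ltbp3 passed in 1 of the 6 fits that left out a library and was lost with all 9 libraries in the fit, the replicate block or no robust estimation (Q up to 0.43). The guidance cue gene Sema3b rose from 3.29, 3.33 and 3.03 CPM to 6.49, 6.71 and 7.32 CPM (log2FC 1.10, Q = 0.0127). C1ql1, a secreted C1q-domain protein that organizes synapses, rose from 46.9 ± 4.64 to 67.4 ± 5.101 CPM (log2FC 0.53). Sema3b passed in 4 and C1ql1 in 3 of the 6 fits, and C1ql1 was lost with all 9 libraries. By Gene Ontology annotation 20 of the 59 raised genes (33.9%) carried an extracellular term, where 7.42% of the 14321 annotated genes tested did, and so did 3 of the 16 lowered genes (18.8%, Agt, Sparcl1 and Fam20a). Many of the 20 raised ones are serpin, complement, class I or myeloid genes described elsewhere, such as Serpina3n, C4b, H2-D1, Ccl6 and Lyz2.

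H19 is an imprinted long non-coding RNA that is abundant in fetal tissue. It was at 19.8, 16.2 and 17.7 CPM in the Exo libraries and 73.8, 57.8 and 94.4 CPM in the pLV-Exo-Wnt5a libraries (log2FC 2.08, standard error 0.16, Q = 5.56e-04), and was the only gene to pass of 26 tested on the imprinted growth gene list, where 0.496% of all genes tested passed. Its groups did not overlap, and the pLV-Exo-Wnt5a replicates were spread more widely than the Exo ones. The mitotic kinase gene Nek6 rose from 43.6, 45.1 and 44.8 CPM to 77.04, 68.4 and 85.7 CPM (log2FC 0.80, Q = 0.00148). The membrane repair protein gene Dysf rose from 2.22, 2.43 and 3.104 CPM to 6.11, 5.98 and 6.83 CPM (log2FC 1.29, Q = 0.0127), and the ADP-ribosyltransferase gene Parp3 from 10.6, 8.35 and 8.07 CPM to 17.6, 16.2 and 23.9 CPM (log2FC 1.11, Q = 0.0161). Foxj1, the master regulator of motile cilia, rose from 35.9 ± 2.12 to 53.4 ± 7.72 CPM (log2FC 0.58, Q = 0.0412), as the only gene to pass of 16 on the ependymal list, with the same share over all genes. Hopx, found in radial glia, rose from 22.4 ± 1.94 to 32.4 ± 2.75 CPM (log2FC 0.54, Q = 0.0412). H19 and Nek6 passed in all 6 fits that left out a library, Dysf and Parp3 in 4, Foxj1 in 2 (Q up to 0.262) and Hopx in 0, and Foxj1 and Hopx were lost with all 9 libraries in the fit.

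The following raised genes are named together only because their products are known to act on the cytoskeleton. No list of such genes was drawn up, so they were put side by side after their values were seen, and no count over a list is given. The actin crosslinker Flna rose from 339 ± 28.7 to 453 ± 14.3 CPM (log2FC 0.43), the calponin gene Cnn3 from 349 ± 4.28 to 475 ± 44.6 CPM (log2FC 0.46), the formin gene Inf2 from 43.7 ± 3.89 to 66.1 ± 5.197 CPM (log2FC 0.61) and synaptopodin (Synpo) from 17.9 ± 1.48 to 26.2 ± 0.585 CPM (log2FC 0.56). The guanine nucleotide exchange factors Net1 and Arhgef17 rose with log2FC values of 0.78 and 0.32, the podosome adaptor Sh3pxd2b with 0.40, the pseudokinase Prag1 with 0.33 and the microtubule-associated kinase Dclk2 with 0.39. None of these 9 calls held in all 6 fits that left out a library. Cnn3, Inf2 and Dclk2 passed in 4, Flna in 3, Net1 and Sh3pxd2b in 2, and Synpo, Arhgef17 and Prag1 in 1. The calls of Net1, Sh3pxd2b, Arhgef17 and Prag1 were also lost with RLE normalization, and those and Synpo with all 9 libraries in the fit. The remaining raised genes were Cchcr1 (log2FC 0.96), the zinc transporter Slc39a14 (0.54), Azin2 (0.55), which acts in polyamine metabolism, the deubiquitinase Usp35 (0.51), Susd6 (0.47), the exonuclease-phosphatase family gene Eepd1 (0.44), the decoy FGF receptor Fgfrl1 (0.38) and Slc1a4 (0.30). Of these, Eepd1 passed in 5 of the 6 fits, Slc39a14, Usp35 and Susd6 in 4, Cchcr1 in 2, and Azin2, Fgfrl1 and Slc1a4 in 1. The calls of Azin2, Fgfrl1 and Slc1a4 were also lost with all 9 libraries in the fit. That of Slc1a4 was further lost with RLE normalization, at least 10 counts in every library, the replicate block or no robust estimation.

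A few raised genes are typical of myeloid cells. Ccl6, a chemokine of macrophages, had 5 counts in the 3 Exo libraries together and 171 in the 3 pLV-Exo-Wnt5a libraries, where it lay at 1.44, 1.58 and 1.36 CPM. The depth-scaled ratio was 34.6 (exact 95% interval from counting 14.6 to 108, Q = 0.00124). Lyz2, the lysozyme of macrophages and microglia, was at 5.03, 6.61 and 5.35 CPM in the Exo libraries and 10.7, 14.8 and 13.8 CPM in the pLV-Exo-Wnt5a libraries (log2FC 1.21, Q = 0.00987), and Cd5l, which macrophages secrete, at 0.306, 0.174 and 0.227 CPM and 0.959, 1.09 and 1.599 CPM (log2FC 2.37, Q = 0.0474). Over the microglia and macrophage list 2 of 27 tested genes rose (0.39% over all genes tested) and 0 fell, 14 had groups apart and higher (7.9% over all genes tested), and the median log2FC was 0.77 against 0.0049 over all genes. The summed level of its 41 genes in the table was 165 to 190.4 CPM in the Exo libraries, 202 to 207 CPM in the pLV-Exo-Wnt5a libraries and 201 to 206 CPM in the Con libraries. Its defining markers were close to 0. Ptprc had at most 6 counts in any of the 6 libraries, P2ry12 at most 8 and Tmem119 at most 12, and Aif1 was at 0.537 ± 0.207 against 0.586 ± 0.204 CPM (Q = 0.947). Csf1r was at 0.740, 0.323 and 0.959 CPM and 2.601, 2.86 and 1.96 CPM and did not pass (Q = 0.0597). The part of such a trace of myeloid RNA in the complement, class I and interferon genes was not tested. In the Con libraries Ccl6 was at 0.132, 0.103 and 0 CPM, Cd5l at 0.448, 0.231 and 0.454 CPM and Lyz2 at 7.33, 8.47 and 10.02 CPM, below every pLV-Exo-Wnt5a library for each gene. This did not hold for all myeloid genes. Csf1r was at 1.93, 1.36 and 2.85 CPM in the Con libraries, above every Exo library and overlapping the pLV-Exo-Wnt5a range. The summed level of the list in Con likewise lay above the Exo range. Lyz2 and Ccl6 passed in all 6 fits that left out a library and Cd5l in 0. Ccl6 and Cd5l met the filter on low counts through the pLV-Exo-Wnt5a libraries. Neither could be tested where at least 10 counts were required in every library.

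The lowered genes were fewer, and only 3 fell past the fold limit, all of 1 to 10 CPM. Fam20a, a pseudokinase of the secretory pathway, was at 6.38, 7.01 and 7.07 CPM in the Exo libraries and 3.96, 3.03 and 2.52 CPM in the pLV-Exo-Wnt5a libraries (log2FC -1.10, standard error 0.19, Q = 0.0328). Mid2, a ubiquitin ligase of the TRIM family, was at 3.24, 3.58 and 3.56 CPM and 1.57, 1.58 and 1.04 CPM (log2FC -1.30, Q = 0.0444), and the olfactory receptor gene Or10ad1 at 3.06, 2.56 and 3.94 CPM and 1.24, 1.01 and 1.28 CPM (log2FC -1.42, Q = 0.0412). The groups of all 3 were apart, but Mid2 and Or10ad1 passed in 0 and Fam20a in 1 of the 6 fits that left out a library.

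Dcx, the doublecortin of migrating young neurons, was the only gene to pass of 50 on the neuron list, where 0.496% of all genes tested passed. It was at 115, 117 and 98.6 CPM in the Exo libraries and 74.99, 76.2 and 66.3 CPM in the pLV-Exo-Wnt5a libraries (log2FC -0.60, standard error 0.08, Q = 0.00954), without overlap. The call was lost without Exo replicate 2 (Q = 0.11), without pLV-Exo-Wnt5a replicate 1 (Q = 0.0507) and with all 9 libraries in the fit (Q = 0.431). The Con libraries ranged from 51.3 to 97.3 CPM. Other neuronal genes did not pass, with NeuN (Rbfox3) at 87.6 ± 7.31 against 90.8 ± 12.9 CPM (log2FC 0.06, Q = 0.869), Tubb3 at 1769.8 ± 219.7 against 1808 ± 267 CPM (Q = 0.929) and Map2 at 195 ± 25.9 against 139 ± 17.7 CPM (log2FC -0.48, Q = 0.0839). The median log2FC of the neuron list was -0.031, and 0 of 49 synaptic genes passed (median -0.031). Of the neuron list 13 genes had groups apart and lower and 1 apart and higher, and of the synaptic list 11 and 2, where 8.57% and 7.9% of all genes tested did so. By annotation 4 of the 16 lowered genes carried a synapse term (25%, against 5.54% of annotated genes tested), Slc6a11, Pja2, Lin7c and Ptprd. Slc6a11 passed in all 6 fits that left out a library, Pja2 in 2, Lin7c in 1 and Ptprd in 0, and the calls of Pja2, Lin7c and Ptprd were also lost with all 9 libraries in the fit. An immune term was carried by 3 of the lowered genes (18.8%, Prkcb, Pja2 and Mid2) and by 10 of the 59 raised genes (16.9%), against 3.07% of annotated genes tested. The scaffold gene Lin7c fell from 35.9 ± 6.195 to 22.1 ± 0.804 CPM (log2FC -0.69), the ubiquitin ligase gene Pja2 from 55.5 ± 2.67 to 41.3 ± 1.502 CPM (log2FC -0.42) and the receptor phosphatase gene Ptprd from 11.6 ± 0.907 to 7.02 ± 0.695 CPM (log2FC -0.71). The ephrin receptor Epha5 fell with a log2FC of -0.70, the protein kinase C gene Prkcb with -0.41, the clock-related transcription factor Hlf with -0.59, the lipid transporter Mfsd2a with -0.41 and Cerox1 with -0.36. Aldh6a1, a mitochondrial enzyme of valine breakdown, was at 72.7, 60.9 and 63.4 CPM and 45.3, 37.4 and 42.8 CPM (log2FC -0.64, Q = 0.012). Aldh6a1 passed in all 6 fits that left out a library, Prkcb in 4, Hlf in 2, and Epha5, Mfsd2a and Cerox1 in 1. With all 9 libraries in the fit the calls of Aldh6a1, Prkcb, Hlf, Mfsd2a and Cerox1 were lost, and those of Mfsd2a and Cerox1 also with the replicate block or no robust estimation.

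The noncanonical Wnt list, which holds the genes of the pathway that Wnt5a is known for, had 0 of 39 genes past Q, where 0.496% of all genes passed, with a median log2FC of 0.016, and Wnt5b was at 14.02 ± 0.805 against 22.6 ± 5.04 CPM (Q = 0.0715). On the list of canonical Wnt feedback and target genes 2 of 27 rose (0.39% over all genes tested) and 0 fell. Dkk3 encodes a secreted member of the Dickkopf family, and Apcdd1 a membrane glycoprotein that inhibits Wnt signalling. Dkk3 rose from 165, 152 and 149.95 CPM to 208, 197 and 233 CPM (log2FC 0.46, Q = 0.0206) and Apcdd1 from 59.9, 51.7 and 55.4 CPM to 87.6, 72.9 and 106 CPM (log2FC 0.68, Q = 0.0423), while the list median was -0.076. Both passed in 3 of the 6 fits that left out a library, with a Q of up to 0.201 for Dkk3 and 0.258 for Apcdd1, and Apcdd1 was lost with all 9 libraries in the fit. None passed among 49 proliferation genes, of which 36 had a log2FC above 0 (median 0.14), 8 had groups apart and higher and 0 apart and lower, where 7.9% and 8.57% of all genes tested did so. The replication licensing gene Mcm5 was at 24.5 ± 2.37 against 32.1 ± 0.572 CPM (log2FC 0.40, Q = 0.0843), Mcm2 had a log2FC of 0.34 (Q = 0.157), Mcm3 of 0.35 (Q = 0.195) and Cdc6 of 0.55 (Q = 0.277). Mki67 was at 0.858 ± 0.208 against 0.588 ± 0.409 CPM (log2FC -0.52, Q = 0.773). Likewise none passed among 26 oligodendrocyte lineage genes (median -0.083), 33 interneuron and neuropeptide genes, 29 fibroblast genes, 27 Notch genes, 32 immediate early genes or 78 cytosolic ribosomal protein genes. Fos was at 18.7 ± 3.399 against 31.6 ± 5.24 CPM (Q = 0.06). Beside these results, Xist was at 78.5, 62.1 and 43.6 CPM in the Exo libraries and 31.8, 34.1 and 34.03 CPM in the pLV-Exo-Wnt5a libraries (Q = 0.0839), and the 12 mitochondrially encoded genes tested had a median log2FC of -0.29, while the 13 in the table had a summed level of 8193 to 10502 CPM in the Exo libraries and 9204 to 10815 CPM in the pLV-Exo-Wnt5a libraries. Their part in the differences was not tested. A pair of abundant genes outside the naming rule, chosen after their values were seen, had large differences and wide replicates. The non-coding Gm26917 was at 7922, 10205 and 4979 CPM and 3923, 3933 and 2511 CPM (log2FC -1.15, Q = 0.239), and Lars2, the mitochondrial leucyl-tRNA synthetase, at 1783, 1938 and 1084 CPM and 871, 1055 and 582 CPM (log2FC -0.93, Q = 0.32).

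Set beside the medium-alone group, as a description without a test, the raised genes divided by where the Con libraries lay. All called genes, raised or lowered, were selected because Exo differed from pLV-Exo-Wnt5a, and this selection alone affects where Con can fall. Shares over all genes tested are not given, so whether the following counts are particular to the called genes was not tested. For 22 of the 59 raised genes the Con range overlapped only the Exo range, for 13 it overlapped only the pLV-Exo-Wnt5a range, and for 21 it lay between the groups. Serpina3n, H19, H2-Q4, Oasl2, Gbp2, Cebpd, Gfap, Clu and Ifi27 were of the first kind, with Ifi27 at 10.7, 10.7 and 9.78 CPM and Oasl2 at 3.67, 2.54 and 3.72 CPM in the Con libraries. Vim, Stat3, Dkk3, Apcdd1, Eepd1 and Inf2 were among those where Con lay with the pLV-Exo-Wnt5a group, with Inf2 at 89.9, 75.1 and 68.4 CPM and Dkk3 at 217, 209 and 230.5 CPM. C4b, Tnn, S1pr3, Ifitm3, H2-K1, H2-D1 and A2m lay between. Hopx was lower in every Con library (20.01, 18.9 and 17.9 CPM) than in any library with exosomes, and the Con range of Arhgef17 overlapped both. Of the 16 lowered genes, Con overlapped only the Exo range for 7, among them Slc6a11, Agt, Fam20a and Mfsd2a, and only the pLV-Exo-Wnt5a range for 6, among them Dcx, Aldh6a1 and Sparcl1. It overlapped both for Prkcb and Lin7c and lay between for Ptprd. Con replicate 1 had the highest sum over the raised genes of its group, 10486 CPM against 8568 and 8486 CPM in the other Con libraries.

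**Figure D4:**
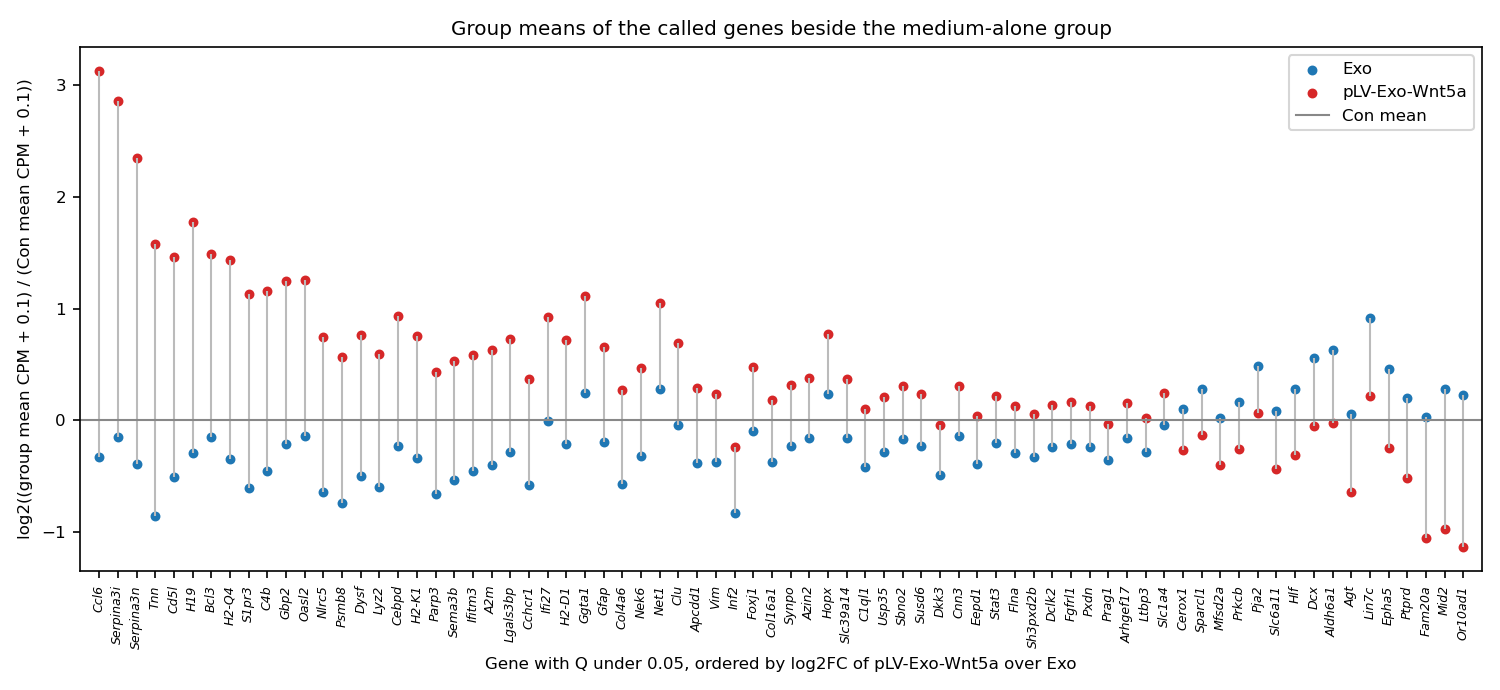
Group means of 74 of the 75 called genes relative to the Con mean, as log2 of the ratio of mean CPM after adding 0.1 CPM (vertical axis), with the Exo group in blue and the pLV-Exo-Wnt5a group in red, joined by a line per gene and ordered by log2FC. Genes on the left, such as Ccl6 and Serpina3n, have the blue point near 0 and the red point far above it, and Dkk3 has the red point near 0 and the blue point below it.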

How the data were processed

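NSC libraries of the pLV-Exo-Wnt5a group were compared by RNA-seq with those of the Exo group (n = 3 each), and the 3 Con libraries supplied levels only. Low-quality reads were removed, and the values deposited by the authors are raw counts of reads per gene. The paper's methods name HISAT2, and the submitters' processing notes name Bowtie2, RSEM 1.3.1 and DESeq2 1.4.5, so which program made the counts is unclear, and the genome build and strandedness are not given in the sources used here. Every count column was matched to a sample.

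Genes were kept by filterByExpr on the 6 libraries (minimum count 10), normalized by TMM and tested in edgeR 4.0.16 (R 4.3.3) by the quasi-likelihood method with robust estimation. P-values were adjusted over all genes tested (Benjamini-Hochberg, Q), and standard errors of log2FC came from the test statistic. CPM values used TMM factors over all 9 libraries and are not corrected for gene length, so levels are not compared between genes. Genes were named if Q was under 0.05, if they were among the 4 genes of a list with the smallest p and separate groups, or if they were markers or Wnt5a. The members, the 41 gene lists and the rule were chosen with earlier results of these data known. A list is described by counts and medians only. Gene Ontology terms are those in the deposited table, and promoter windows are from RefSeq (GRCr8).

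On simulated counts, with 14911 genes tested in this comparison, edgeR recovered 88% of 100 genes changed by a log2FC of 1.5 and 99% of 100 changed by 3, with 17 false calls, and DESeq2 87% and 98%, with 39 false calls. These changes exceed the median absolute log2FC of the called genes (0.85 raised, 0.62 lowered), so recovery at those sizes was not measured. Each simulated library was drawn independently, without shifts that genes of a library share. Alternatives were RLE normalization, DESeq2 1.42.0, a minimum of 10 counts in each library or no filter, all 9 libraries in the fit, the replicate number as a block, unadjusted p, leaving out each library, and, added after the data were seen, no robust estimation. The immunostaining, protein and animal experiments are not analysed here. Values of a few genes, 1 of them called, are not reported here or drawn beside Con.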

Additional observations from a re-analysis of the deposited data

How the results depend on the processing

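No gene past Q changed direction under any alternative run, and the counts moved with the tool, the filter and single libraries. DESeq2 gave 51 raised and 23 lowered genes past both limits and 190 raised and 237 lowered at Q, including all 75 of edgeR. Without a filter on low counts the numbers were 43, 14, 147 and 135, and 73 of the 75 stayed called. With an unadjusted p and the fold limit, 117 were raised and 77 lowered. RLE normalization and no robust estimation kept 68 and 65 of the 75, and the fit of all 9 libraries kept 46, with 5 lowered at Q. With at least 10 counts in every library, 67 of the 72 called genes that could be tested were kept. With the replicate number as a block 67 were raised and 42 lowered at Q, 65 of them shared. Same-numbered libraries correlated at 0.17, 0.20 and -0.23 in their deviations, and not every library correlated best with its own number, so the numbers were not used as pairs. Leaving out 1 library gave 11 to 28 raised and 0 to 4 lowered genes past both limits and 17 to 81 raised and 3 to 60 lowered at Q. The causes were not tested. The log2FC of Wnt5a was -0.0012 with all 9 libraries and ran from -0.072 to 0.12 when 1 library was left out. Other uncalled markers that changed sign then were Rbfox3 (-0.046 to 0.15), Tubb3 (-0.061 to 0.14), Sox2 (-0.22 to 0.067), Aif1 (-0.15 to 0.37) and Aqp4 (-0.41 to 0.0034). A count of 0 allows a level of up to 3 counts, 0.0727 to 0.0819 CPM.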
